A study of Mus musculus with 1753 samples.

Results

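Olfr78, Olfr558, Mrgprh, Crhr2, Hcrtr1 and P2rx1 are 6 receptor genes of the 46517 genes counted in single cells of mouse skeletal muscle. They were picked because their counts were high in cluster 7, the vascular mural cells, and the cluster labels had been made from the same counts. Every difference between mural cells and fibroblasts below is therefore a description, and no test was made. All 6 genes were found in the table, each under 1 identifier, and counts of any size were seen for 30309 genes in all.

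The study compared fibroblasts and mural cells across organs by full-length single-cell RNA sequencing (Smart-seq2). The skeletal muscle samples were 1753 single cells from male mice aged 10 to 20 weeks, in 10 labelled clusters and on 8 plates. They carried 5 strain labels. C57BL6 is the inbred strain, sorted with antibodies, and Acta2GFP, Cspg4dsRED and PdgfrbGFP are reporter lines in which a fluorescent protein follows the promoter of the named gene. The label PdgfraGFP - PdgfrbGFP pool, called the pool below, names PdgfraGFP and PdgfrbGFP reporter mice and covers soleus and gastrocnemius cells, of which the methods describe a pooling for soleus only. A sort on a reporter takes only cells in which that promoter is active, and endothelial cells positive for CD31 were excluded from all sorts. Elastase was added to the dissociation of Acta2GFP muscle only. Cluster 7 held 187 mural cells, of which 56 were Acta2GFP, 9 C57BL6, 74 Cspg4dsRED, 11 pool and 37 PdgfrbGFP. The other 9 clusters held 1566 fibroblasts. No animals are named in the labels, so the strain label served as the replicate, and the SDs below cover the spread between 5 strain labels.

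Cells held 46097 to 1055869 counts each, and the median was 156959 for mural cells and 269496 for fibroblasts. Each cell was scaled to 500000 counts without spike-ins, and these values are called scaled counts. A gene was called detected in a cell at 100 or more scaled counts. The mural name held against the markers. Acta2 was detected in 184 and Myh11 in 179 of the 187 cells. A strain mean is the mean over the cells of a strain label, and a gene is called higher or lower in mural cells where its 5 mural strain means all lay above, or all below, its 5 fibroblast strain means. By this criterion 8 of 12 mural markers were higher and all 5 fibroblast markers lower. The strain means of the mural markers Kcnj8, Abcc9, Pdgfrb and Cspg4 overlapped those of fibroblasts. Of the other markers, 0 of 4 measurable endothelial, 0 of 4 immune and 0 of 2 Schwann cell markers were higher. This criterion needs all 5 mural strain means, so it does not show a marker raised in 1 strain label. Lyz2 averaged 58.9 ± 129 scaled counts in mural cells (highest strain mean 289) against 2.51 in fibroblasts. Kdr averaged 13.1 ± 27.9 (highest 63.0) against 0.749, whereas Cdh5 averaged 0.668 ± 0.513 against 1.77. Median log2 ratios of mural to fibroblast means (each plus 1) were 1.66 for immune, 0.795 for endothelial and -0.389 for Schwann cell markers. The platelet markers Ppbp and Gp9 had 1 and 0 counts over all mural cells, and Pf4 averaged 6.93 ± 15.4 scaled counts (SD, n = 5). The C57BL6 mural cells came from a pair of plates that stood apart. On the first, all 5 cells had 1505 or more scaled counts of Rgs5 and 415 or more of Kcnj8, and none had a count of Olfr78. On the second, all 4 cells had 259 or more scaled counts of Olfr78 and none of Kcnj8 or Abcc9.

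Mural cells are the smooth muscle cells of arterioles and venules and the pericytes of capillaries. Through surface receptors they read hormones, nucleotides and metabolites, and many of these receptors act through G proteins on cAMP or on calcium, the signals that set vessel tone. Olfactory receptors are best known from the nose, but a few are expressed in blood vessels, and Olfr78 and Olfr558 are known to respond to short-chain fatty acids. Mrgprh is an orphan receptor of the Mas-related family, Crhr2 is the receptor for urocortins, Hcrtr1 is a receptor for orexins, and P2rx1 is a cation channel opened by extracellular ATP.

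Olfr78 and Olfr558 lie close together in an olfactory receptor cluster on chromosome 7 (GRCm38, GENCODE M21). Olfr78 spans chr7:102738511-102759471 on the minus strand and Olfr558 chr7:102702215-102712064 on the plus strand. The reads were 50 bases long, so whether a read can tell these genes apart depends on how long a stretch they share. Their coding sequences were identical at 601 of 969 aligned columns (62.0%), and the longest run of identical bases was 23. That run is printed in capitals below with 30 bases on either side in lower case, from GENCODE transcripts and in the direction of transcription, for Olfr78 at chr7:102742610-102742692 and for Olfr558 at chr7:102709579-102709661. It falls in a stretch that olfactory receptors are known to conserve.
Olfr78: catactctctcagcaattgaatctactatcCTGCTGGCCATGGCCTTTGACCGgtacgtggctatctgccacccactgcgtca
Olfr558: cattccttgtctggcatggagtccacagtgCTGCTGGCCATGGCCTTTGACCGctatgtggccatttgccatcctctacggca

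Exons are shared with other annotated genes at this locus. Of the exonic bases of Olfr78, 926 (15.3%) also belong to Olfr560 on the same strand, and reads from them cannot be assigned to either gene. Olfr560 was not analysed here. Of the exonic bases of Olfr558, 101 (3.32%) overlap the pseudogene Gm45688 on the opposite strand, which was also not analysed here, and whether the counting used strand is not given in the sources used here. Of all 50-base words in the transcripts, 14.2% for Olfr78 and 1.74% for Olfr558 recurred in a transcript of another gene, against 0 for the other 4 receptors. Those lie at chr17:12876034-12877977 for Mrgprh, chr6:55090049-55133016 for Crhr2, chr4:130130217-130139359 for Hcrtr1 and chr11:72999103-73015200 for P2rx1.

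Promoter sequence was at hand for 5 of the genes, and that of Olfr78 was not. The RefSeq table (GRCm38.p6) gives 250 bases before to 50 after each start. The stretches printed next, up to the gene start in GENCODE, are shown because they hold matches to motifs of factors known from mural cells, in capitals. The motifs are TGGGAA for RBPJ of the Notch pathway and CTATAAATA for MEF2. Crhr2 holds both, and P2rx1 holds TGGGAA only. Crhr2 is at chr6:55133017-55133266 on the minus strand and P2rx1 at chr11:72998895-72999102 on the plus strand.
Crhr2: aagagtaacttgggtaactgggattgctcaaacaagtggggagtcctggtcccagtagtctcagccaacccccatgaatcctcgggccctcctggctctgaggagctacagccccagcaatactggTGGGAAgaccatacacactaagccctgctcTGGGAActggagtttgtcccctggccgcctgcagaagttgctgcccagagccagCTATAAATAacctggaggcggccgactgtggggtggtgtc
P2rx1: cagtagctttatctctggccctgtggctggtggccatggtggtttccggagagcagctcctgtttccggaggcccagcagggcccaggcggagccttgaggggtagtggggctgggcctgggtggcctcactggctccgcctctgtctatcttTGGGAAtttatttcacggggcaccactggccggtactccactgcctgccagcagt

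On both strands, TGGGAA was found in the promoters of Olfr558, Crhr2, P2rx1 and in 1 of 3 promoters of Hcrtr1, and in 25.6% of all 32851 promoters in the table. The longer GTGGGAA, which overlaps it, was found in Crhr2 and in 6.38% of all promoters. CTATAAATA was found in Crhr2 and in 0.451% of all promoters, and TATAAA, which lies within it, in Crhr2 and 13.6%. The CArG box was found in none of the 5 genes and in 1.63% of all promoters, and TGACGTCA in none and in 1.79%. The common words CANNTG and GATA were found in 72.3% and 57.9% of all promoters and are not considered further. The motifs were chosen after the sequences had been seen, and a match is not evidence of binding.

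Olfr78 averaged 440 ± 92.7 scaled counts in mural cells (SD, n = 5). The strain means were 428 in Acta2GFP, 571 in C57BL6, 320 in Cspg4dsRED, 477 in the pool and 403 in PdgfrbGFP. In fibroblasts they were 2.96 in Acta2GFP, 0 in C57BL6, 0.926 in Cspg4dsRED, 0.256 in the pool and 0.271 in PdgfrbGFP. All 5 mural strain means thus lay above all 5 fibroblast strain means, and the same was found for all 6 receptors. Among all 14348 genes with a mean of at least 1 scaled count in either class, 5.45% were higher in mural cells by this criterion and 11.3% were lower. Nothing is read from this count for the 6 receptors, since the same contrast chose them. Leaving out each strain label in turn gave 6.01% to 8.92% higher, the latter without C57BL6. Fewer strain means are easier to separate, so part of this rise is built in.

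Olfr558 averaged 326 ± 109 scaled counts in mural cells. Its strain means were 447 for Acta2GFP, 221 for C57BL6, 272 for Cspg4dsRED, 250 for the pool and 439 for PdgfrbGFP. Acta2GFP and PdgfrbGFP were thus high for Olfr558, whereas the highest strain mean of Olfr78 was that of C57BL6. That mean of Olfr78 joins 4 cells of 1 plate, which averaged 1285 scaled counts, and 5 cells of the other plate without a count. In fibroblasts the strain means of Olfr558 ranged from 0 in C57BL6 to 5.26 in Acta2GFP.

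P2rx1, the ATP-gated channel, averaged 201 ± 108 scaled counts in mural cells. Its strain means were 249 in Acta2GFP, 237 in C57BL6, 202 in Cspg4dsRED, 18.9 in the pool and 299 in PdgfrbGFP. The pool was low, with counts in 1 of its 11 mural cells. The fibroblast strain means ranged from 0 to 1.09.

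The remaining peptide and orphan receptors were found at lower levels and in fewer cells. Crhr2 averaged 54.8 ± 32.3 scaled counts, with strain means of 76.1 in Acta2GFP, 90.5 in C57BL6, 31.5 in Cspg4dsRED, 12.1 in the pool and 63.7 in PdgfrbGFP. The C57BL6 and pool values of Crhr2 each came from a single positive cell, at 815 and 133 scaled counts. Mrgprh averaged 31.8 ± 17.0 scaled counts, with strain means of 27.3 in Acta2GFP, 8.52 in C57BL6, 32.4 in Cspg4dsRED, 34.7 in the pool and 56.0 in PdgfrbGFP. Its value in C57BL6 also came from 1 cell. Hcrtr1 averaged 30.2 ± 9.83 scaled counts, with strain means of 23.2 in Acta2GFP, 23.4 in C57BL6, 22.4 in Cspg4dsRED, 41.4 in the pool and 40.5 in PdgfrbGFP. Hcrtr1 had the narrowest relative spread over strains of these 3 genes although it was detected in the fewest cells, 16 of 187. Its C57BL6 value came from 1 cell and its pool value from 2, so the narrow spread is not read as evenness over strains.

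**Figure D1:**
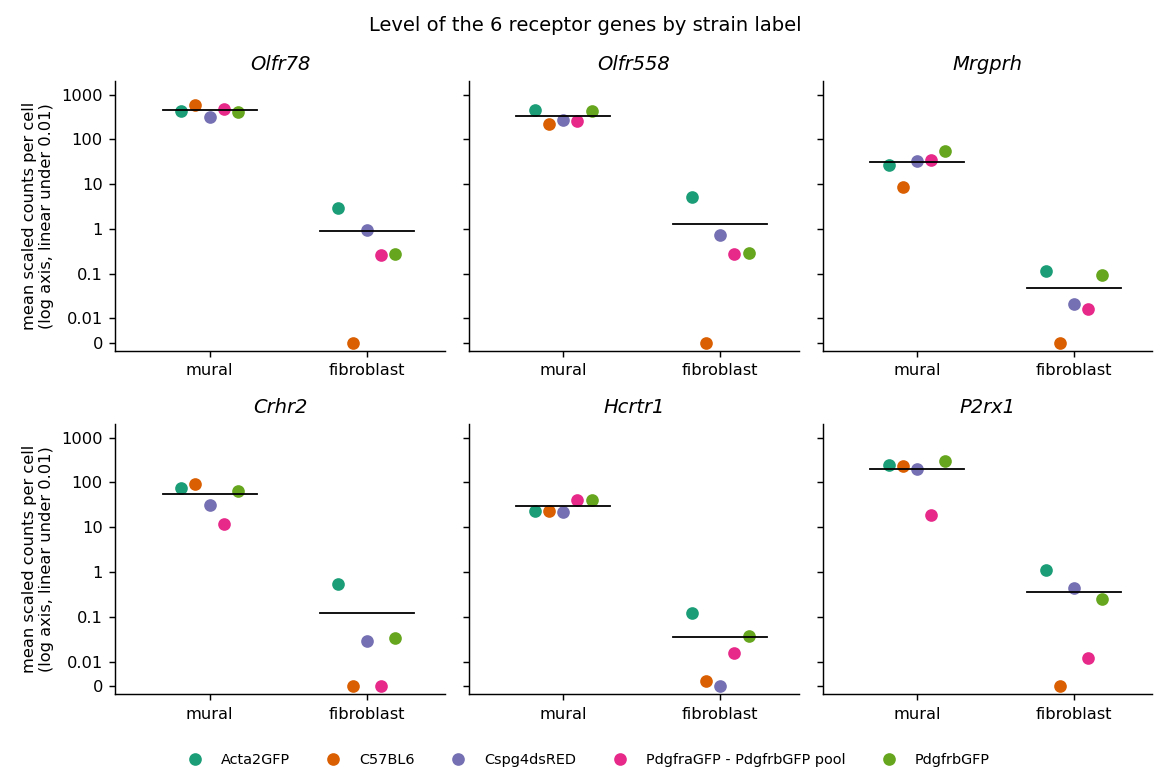
Mean scaled counts per cell of the 6 receptor genes in mural cells and fibroblasts, on a logarithmic axis that is linear under 0.01. Each point is a strain label and each bar the mean of the 5 points, and in all 6 genes the 5 mural points lie above the 5 fibroblast points.

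Per kilobase of exon, which allows levels of different genes to be compared, the order in mural cells was Olfr558 at 107 ± 35.7 scaled counts, P2rx1 at 76.7 ± 41.0 and Olfr78 at 72.9 ± 15.4, followed by Mrgprh at 16.3 ± 8.75, Hcrtr1 at 11.6 ± 3.77 and Crhr2 at 10.7 ± 6.32. Neighbours within the first 3 and within the last 3 differed by less than the larger SD over strains of the pair. The lowest strain value of Olfr78, 53.1 per kilobase, lay above the highest of Mrgprh, 28.8. P2rx1 did not separate in this way, since its value in the pool was 7.20.

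The ratio of the mural to the fibroblast mean was 853 for Hcrtr1, 650 for Mrgprh, 564 for P2rx1, 498 for Olfr78, 444 for Crhr2 and 248 for Olfr558. These ratios rest on fibroblast means near 0 that 1 strain label largely set. Without Acta2GFP they were 2271 for Hcrtr1, 1001 for Mrgprh, 1093 for P2rx1, 1220 for Olfr78, 3155 for Crhr2 and 913 for Olfr558. Crhr2 then had the highest ratio of the 6, so no order of the genes is read from them.

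None of the 6 receptors reached 100 scaled counts in any of the 1566 fibroblasts, which allows a share of up to 0.192% of fibroblasts, if cells are taken as independent, which cells of a strain label or plate are not, and for counting error only. The reads carry no molecular identifiers. The highest value in a fibroblast was 60.3 scaled counts for Olfr78 and 52.6 for Olfr558. Small counts were nevertheless present. At least 1 count was found in 167 fibroblasts for Olfr78, 182 for Olfr558, 92 for P2rx1, 23 for Crhr2 and 20 each for Mrgprh and Hcrtr1. In the 9 fibroblast clusters the mean over strain labels stayed at or below 1.64 scaled counts, the value of Olfr558 in cluster 9, and Crhr2 had no count in clusters 1 and 10.

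These counts in fibroblasts were not spread evenly over plates. On the Acta2GFP plate, 67.3% of fibroblasts had a count of Olfr558, 52.5% of Olfr78, 28.7% of P2rx1 and 15.8% of Crhr2, and on the same plate 99.0% had a count of the mural gene Myh11. On the Cspg4dsRED plate, where the share of mural cells was similar (40.9% against 35.7%), the shares were 15.9% for both Olfr558 and Olfr78 and 62.6% for Myh11. The larger C57BL6 plate held 361 fibroblasts and 5 mural cells. There Olfr78, Olfr558, Mrgprh, Crhr2 and P2rx1 had no count in a fibroblast, and Hcrtr1 had 1 count in 1 fibroblast. The 5 mural cells of that plate also had no count of Olfr78, Mrgprh, Crhr2, Hcrtr1 or P2rx1, and 10 counts of Olfr558. The lack of fibroblast counts on that plate is therefore not set against the other plates.

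The counts in fibroblasts were also set against the mural counts of the same plate. On the Acta2GFP plate they came to 1.05% of the mural counts for Olfr78, 1.60% for Olfr558, 0.645% for Mrgprh, 0.863% for Crhr2, 0.718% for Hcrtr1 and 0.794% for P2rx1, beside 1.63% for Myh11. On the Cspg4dsRED plate they came to 0.377% for Olfr78, 0.343% for Olfr558, 0.141% for Mrgprh, 0.168% for Crhr2, 0 for Hcrtr1 and 0.272% for P2rx1, beside 0.345% for Myh11. Elsewhere the receptors and Myh11 lay further apart. On the PdgfrbGFP plates Olfr78 came to 1.13% and 1.11% beside 2.19% and 1.69% for Myh11, and on the pool plates to 2.28% and 1.01% beside 6.30% and 3.42%. On the larger C57BL6 plate Myh11 came to 33.4%, with 263 of its 464 fibroblast counts in a single fibroblast. Whether these reads stem from RNA outside the sorted cell was not tested.

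**Figure D2:**
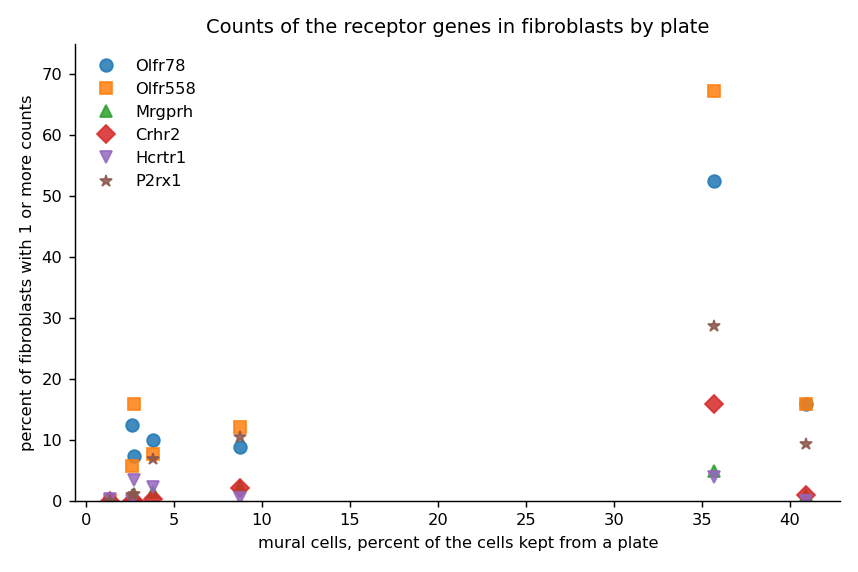
Percent of fibroblasts with at least 1 count of each receptor gene, by plate, against the percent of mural cells among the cells kept from that plate, for the 7 plates with 100 or more fibroblasts. The Acta2GFP plate, at 35.7% mural cells, holds the highest point of every gene, and the Cspg4dsRED plate, at 40.9%, lies well below it.

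Within mural cells the receptors differed in how many cells held them. Olfr558 was detected in 122 of 187 cells and Olfr78 in 109, P2rx1 in 67, Crhr2 in 27, Mrgprh in 23 and Hcrtr1 in 16. The share of cells with Olfr558 was 82.1% in Acta2GFP and 83.8% in PdgfrbGFP but 48.6% in Cspg4dsRED, 54.5% in the pool and 33.3% in C57BL6. That of Olfr78 was more even, from 44.4% in C57BL6 to 66.1% in Acta2GFP. P2rx1 was detected in 28 of the 56 Acta2GFP cells, and its share was 51.4% in PdgfrbGFP against 21.6% in Cspg4dsRED, 33.3% in C57BL6 and 9.09% in the pool. Cspg4dsRED had the shallowest mural cells, with a median of 128712 counts and 2306.5 genes against 166266 counts and 5464.5 genes in Acta2GFP, and the part of depth and of the sort in these differences was not tested.

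Among the cells at 100 or more scaled counts, the mean of Hcrtr1 by strain label ranged from 211 in C57BL6 to 413 in Cspg4dsRED, and that of Crhr2 from 133 in the pool to 815 in C57BL6. Lower values were common in Acta2GFP, where 18 cells had a count of Hcrtr1 and 5 of them reached 100, and 31 had a count of Crhr2 and 15 reached 100. At 1 or more counts Hcrtr1 was found in 30 of 187 mural cells and Crhr2 in 52. Mrgprh behaved differently. It was detected in 23 cells at 100 scaled counts but in 59 at 20 and in 77 at 1 count, so that low values made up most of its positive cells.

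A mural cell held 1.85 ± 0.559 of the 6 receptors on average (SD over strains, n = 5). None was detected in 28 cells, 1 in 42, 2 in 50, 3 in 49, 4 in 15 and 5 in 3, and no cell held all 6 at 100 scaled counts. At 1 or more counts, 178 of 187 cells held at least 1 receptor and 10 cells held all 6, each of these from Acta2GFP. Acta2GFP is also the plate whose fibroblasts most often had counts of these genes. The mean number of receptors per cell was 2.45 in Acta2GFP, 2.46 in PdgfrbGFP, 1.55 in the pool, 1.45 in Cspg4dsRED and 1.33 in C57BL6. The median count was 157458 in cells without any receptor, 118062 with 1, 160625 with 2, 156959 with 3, 222744 with 4 and 213584 with 5, with no steady order up to 3 receptors. The median number of genes was 3194.5, 2927, 3365.5, 4483, 5172 and 5866 in the same order.

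**Figure D3:**
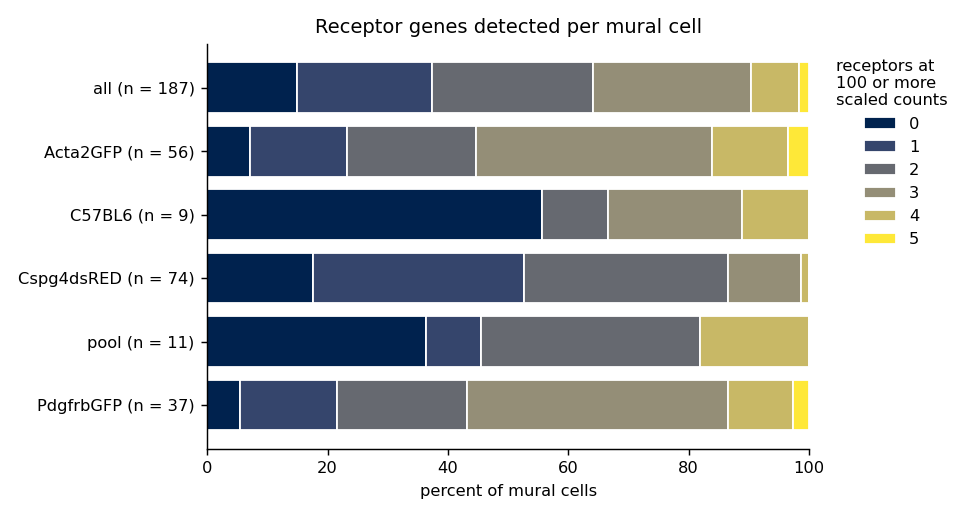
Percent of mural cells with 0 to 5 of the 6 receptor genes at 100 or more scaled counts, over all 187 cells and by strain label. In Acta2GFP and PdgfrbGFP the most common number is 3, in Cspg4dsRED most cells hold 1 or 2, and 5 of the 9 C57BL6 cells hold none.

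Olfr78 and Olfr558 were most often found together. Both were detected in 86 cells, which is 78.9% of the cells with Olfr78 and 70.5% of the cells with Olfr558, and 42 cells had neither. Of the cells without Olfr558, 35.4% had Olfr78. Within strain labels, Olfr78 was detected in 73.9% of the Acta2GFP cells with Olfr558 and in 3 of the 10 without, in 71.0% and 16.7% in PdgfrbGFP, and in 61.1% and 44.7% in Cspg4dsRED. Over the 5 strain labels the share of mural cells with both was 45.7% ± 14.3 (SD, n = 5).

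P2rx1 was found with Olfr78 in 51 cells, and with Olfr558 in 51 cells. Of the 67 cells with P2rx1, 76.1% had Olfr78, against 48.3% of the 120 cells without it. Mrgprh, Crhr2 and Hcrtr1, each rare, shared few cells, 5 for Mrgprh and Crhr2, 3 for Mrgprh and Hcrtr1 and 3 for Crhr2 and Hcrtr1. Mrgprh was detected in 18.5% of the cells with Crhr2 and in 11.3% of the others. At 20 scaled counts these shares were 55.3% and 25.5%, and Crhr2 was found in 9 of 18 cells with Hcrtr1 against 17.2% of the others. Olfr558 was detected in 82.6% of the cells with Mrgprh against 62.8% of the others, in 85.2% against 61.9% for Crhr2 and in 68.8% against 64.9% for Hcrtr1. Olfr78 was detected in 65.2% against 57.3% for Mrgprh, 63.0% against 57.5% for Crhr2 and 81.3% against 56.1% for Hcrtr1. These shares rest on 23 cells with Mrgprh, 27 with Crhr2 and 16 with Hcrtr1, pooled over strain labels. At 1 count, 27 of the 30 cells with Hcrtr1 had Olfr78 and 28 had Olfr558. No preference of a rare receptor for either olfactory receptor is read from them.

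**Figure D4:**
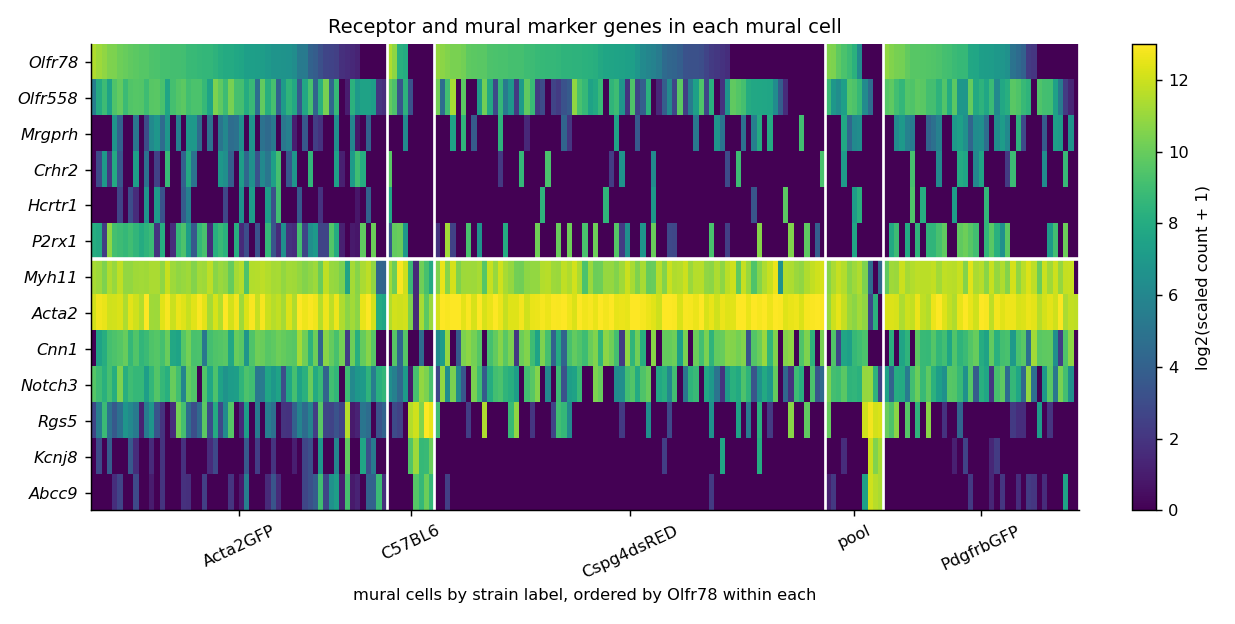
Log2 of the scaled count plus 1 of the 6 receptor genes (above the white line) and of 7 mural marker genes in each of the 187 mural cells, grouped by strain label and ordered by Olfr78 within each. Cells with Abcc9 and Kcnj8 in C57BL6 and the pool sit at the right end of their groups, where Olfr78 is lowest.

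Cells with Abcc9 and Kcnj8 lacked Olfr78. These genes encode the subunits of a potassium channel opened when ATP falls and are widely used as pericyte markers. They were not confined to mural cells, since Abcc9 was detected in 3.77% and Kcnj8 in 1.66% of fibroblasts, against 6.95% of mural cells for each. Abcc9 was detected in 13 mural cells, 4 each in Acta2GFP, C57BL6 and the pool and 1 in PdgfrbGFP. Olfr78 was detected in none of these 13 cells, and in 109 of the 174 other mural cells (62.6%). The same was seen with Kcnj8, where none of 13 cells had Olfr78. Olfr558 was detected in 2 of the 13 cells with Abcc9, both from Acta2GFP, and in 120 of the other 174 (69.0%). P2rx1 was detected in 2, Crhr2 in 2 and Mrgprh and Hcrtr1 in none of the 13. Over all strain labels the median was 185198 counts in the cells with Abcc9 and 146512 in the others. None of the cells with Abcc9 was from Cspg4dsRED, which had the shallowest mural cells. Depth was not compared within strain labels, and its part was not tested.

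The separation depended on the limit of detection. At 20 scaled counts, 1 of 15 cells with Abcc9 had Olfr78 (6.67%), against 70.3% of the others. At a single count the shares over all cells lay closer, with Olfr78 in 35 of 49 cells with Abcc9 (71.4%) against 81.2% of the others, and 29 of these 49 cells were Acta2GFP. By strain label, Olfr78 was then found in 25 of 29 cells with Abcc9 in Acta2GFP, 0 of 4 in C57BL6, 2 of 2 in Cspg4dsRED, 2 of 6 in the pool and 6 of 8 in PdgfrbGFP. Of the cells without Abcc9 it was found in 26 of 27 in Acta2GFP, 4 of 5 in C57BL6, 54 of 72 in Cspg4dsRED, 5 of 5 in the pool and 23 of 29 in PdgfrbGFP. The shares thus lay furthest apart in C57BL6 and the pool. At that limit the counts in fibroblasts described above also register.

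**Figure D5:**
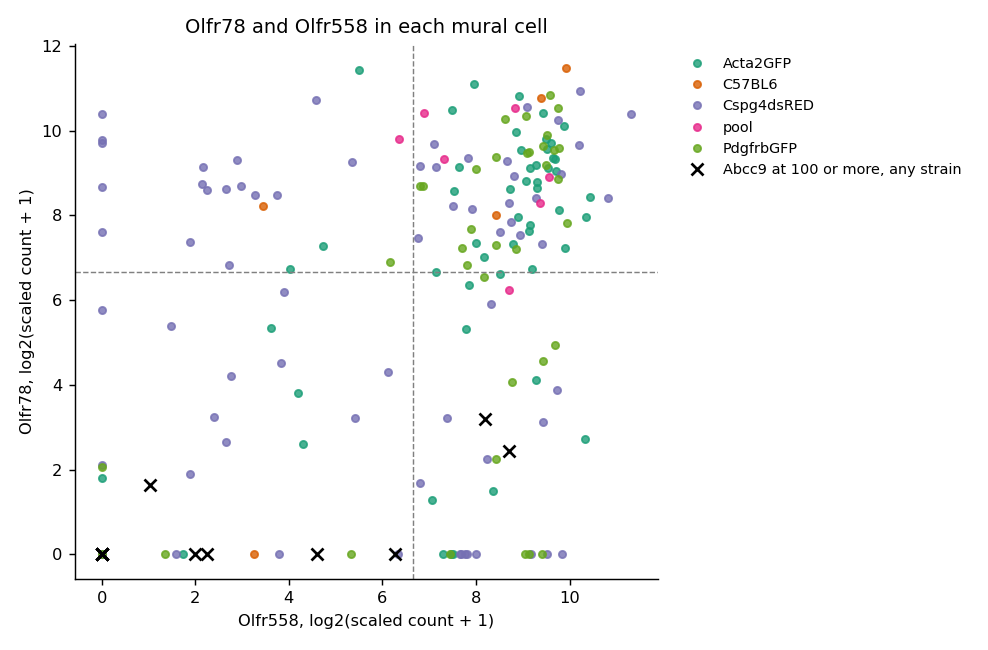
Olfr78 against Olfr558 in each of the 187 mural cells, both as log2 of the scaled count plus 1, coloured by strain label, with cells at 100 or more scaled counts of Abcc9 drawn as black crosses, several of which coincide at 0. Dashed lines mark 100 scaled counts, 86 cells lie to the upper right of both lines, and all 13 crosses lie below the line for Olfr78.

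Rgs5, a regulator of G protein signalling that is also used as a pericyte marker, divided the receptors differently. It was detected in 38 mural cells. Among them Olfr78 was found in 22, Olfr558 in 23 and P2rx1 in 15, close to their shares in the 149 other cells (57.9% against 58.4% for Olfr78, 60.5% against 66.4% for Olfr558 and 39.5% against 34.9% for P2rx1). The shares for the rarer receptors were lower at this limit. Hcrtr1 was found in 0 of the 38 cells against 16 of 149, Mrgprh in 1 against 22 and Crhr2 in 2 against 25. At 1 count the order turned for Crhr2 (32.6% against 22.8%) and Hcrtr1 (16.8% against 15.2%) over all cells, and Mrgprh was found in 38 of 95 cells against 39 of 92. Of the 95 cells with Rgs5 at that limit 50 were Acta2GFP, and within each of the 5 strain labels all 3 shares were lower in the cells with Rgs5. At 100 scaled counts the 9 C57BL6 cells split fully, with Olfr78 in 0 of 5 cells with Rgs5 and in 4 of 4 without, whereas in PdgfrbGFP Olfr78 was detected in 6 of 7 cells with Rgs5 and in 17 of 30 without.

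Correlations over the 187 mural cells, taken as Pearson's r of log2(scaled count + 1) after subtraction of each strain label's mean, describe the same pattern. Cells share plates and depth, so no p is given. For Olfr78 and Olfr558 r was 0.42, and it was 0.26 for Olfr78 and P2rx1 and 0.22 for Olfr558 and Mrgprh. The other 12 pairs of receptors lay between -0.06 and 0.18, values at which sparse counts carry no finding. With Abcc9, r was -0.46 for Olfr78 and -0.35 for Olfr558, and with Myh11 it was 0.32 and 0.35. With the total counts of the cell, r was -0.03 for both olfactory receptors, and from -0.06 for P2rx1 to 0.14 for Hcrtr1 among the others. With the number of genes detected in the cell, r ranged from 0.08 for Olfr78 to 0.21 for Mrgprh.

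Among 7118 genes with a count in at least 20% of mural cells, the gene most like Olfr78 by this r was Olfr558, followed by Gm37509 (0.37), Fbxl22 (0.37), Pitpnc1 (0.37) and Lbh (0.36). The median gene had r = 0.01. For Olfr558 the most alike genes were Nrip2 (0.47), Gm44596 (0.44), Olfr78, Pln (0.40), which encodes the calcium pump regulator phospholamban, and Cavin1 (0.39), a coat protein of caveolae. The lowest r with Olfr558 was that of Abcc9 (-0.35), and the lowest with Olfr78 was that of Ogn (-0.50), which encodes the matrix proteoglycan osteoglycin. For the other receptors the highest values were 0.37 for Mrgprh with Adamtsl1, 0.33 for Crhr2 with Strn4, 0.33 for Hcrtr1 with Tap2 and 0.32 for P2rx1 with Sept7.

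The next most alike genes of Mrgprh were Usp2 (0.36), Btbd3 (0.35), Dtna (0.35) and Hsd17b4 (0.33). For Crhr2 they were Gm28551 (0.31), Atn1 (0.30), E030013I19Rik (0.30) and Epb41l1 (0.29), for Hcrtr1 Bag2 (0.32), Drg2 (0.31), Rilpl1 (0.30) and Sorbs2os (0.30), and for P2rx1 Daam2 (0.29), Mta3 (0.28), BC037032 (0.27) and Snw1 (0.26). Within each of these lists the values lay close to each other.

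Other olfactory receptor genes were nearly silent. Within 200 kb of Olfr78 or Olfr558, 30 olfactory receptor genes are annotated, of which 24 were analysed and 11 had any count. All of them together held 266 counts in mural cells, against 26754 for Olfr78 and 26666 for Olfr558. Olfr564, which lies 44009 bases from Olfr78, had 164 of these counts in 21 mural cells and 1 count in fibroblasts, and its strain means did not overlap, at 3.07 ± 3.53 scaled counts in mural cells. Olfr33, which lies 87 bases from Olfr558, had 25 counts in 3 mural cells and none in fibroblasts. Olfr561 had 56 counts in 1 mural cell and 23 in fibroblasts, Olfr559 had 17 counts in 2 mural cells, Olfr574 had 2 counts in 1 mural cell and Olfr557 had 1 count. Olfr550 showed the reverse, with 1597 counts in fibroblasts and 1 in mural cells. Olfr571, Olfr551, Olfr552 and Olfr553 had 6, 4, 1 and 1 counts, all in fibroblasts.

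Of all 1034 other olfactory receptor genes in the table, 125 had a count anywhere and 26 a count in a mural cell, and 3 passed the minimum of 1 scaled count. Among the 19 other Mrgpr genes, Mrgprf was widely expressed, at 181 ± 96.9 scaled counts in mural cells and 81.4 ± 21.2 in fibroblasts, with strain means that overlapped.

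The close relatives of the peptide and ATP receptors were low in mural cells. Crhr1 and Hcrtr2, the sister receptors of Crhr2 and Hcrtr1, had no count in mural cells. Of 16 genes of the receptor families listed beside the olfactory and Mrgpr genes, 10 passed the minimum, 0 were higher in mural cells and P2rx4 and P2ry1 were lower, beside 5.45% and 11.3% of all genes. The list had a median log2 ratio of the class means (each plus 1) of -1.19 against -0.08 over all genes. P2rx4 averaged 8.26 ± 5.85 scaled counts in mural cells against 44.4 ± 3.76 in fibroblasts, and P2ry1 7.28 ± 14.9 against 57.7 ± 28.8. Beside P2rx1, no P2rx or P2ry gene of the list exceeded a mean of 12.7 scaled counts in mural cells, the value of P2ry2. The fatty acid and lactate receptors Ffar1 to Ffar4, Hcar1 and Hcar2 did not reach the minimum in either class, and their mural counts summed to 9.

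On the ligand side, the peptide genes were not detectable at this depth. Crh, Ucn, Crhbp and Hcrt had no count in any cell, and Ucn2 and Ucn3 had 5 and 2 counts in all. Enzymes that degrade extracellular nucleotides differed between the classes. Entpd1, which hydrolyses ATP and ADP, was higher in mural cells (229 ± 79.3 against 49.6 ± 21.8), and Entpd2, which acts mainly on ATP, was lower (20.6 ± 26.6 against 460 ± 180). Nt5e, which makes adenosine from AMP, averaged 0.142 scaled counts in mural cells against 21.6 in fibroblasts, and the alkaline phosphatase gene Alpl 0.635 against 35.2. In this list 1 of 6 measurable genes was higher and 3 were lower, beside 5.45% and 11.3% of all genes.

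The machinery of olfactory signalling was represented in part. Of 17 genes for export and coupling of olfactory receptors, 9 passed the minimum, 1 was higher and 0 were lower, beside 5.45% and 11.3% of all genes, with a median log2 ratio of -0.27. A count of 1 in 9 is near that background. The gene that was higher was Reep1, a receptor export protein, at 44.4 ± 29.4 scaled counts in mural cells and 0.837 ± 0.579 in fibroblasts. Rtp1 and Rtp2, the main export chaperones of the nose, had no mural count. Gnas, the stimulatory G protein alpha subunit, averaged 575 ± 121 in mural cells and 597 ± 140 in fibroblasts, whereas its olfactory relative Gnal averaged 7.48 ± 5.70 and 11.7 ± 3.35. Adcy3, the adenylyl cyclase of olfactory neurons, averaged 18.2 ± 28.8 and 23.5 ± 11.1, and the olfactory cation channel genes Cnga2 and Cnga4 had no mural count.

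Of 40 genes of G protein and cAMP or calcium signalling, 37 passed the minimum. In mural cells 12 of them were higher and 6 were lower, beside 5.45% and 11.3% of all genes, and the median log2 ratio was 0.87. The list was chosen with earlier results of these data known and includes Rgs5, also a mural marker here. No enrichment is therefore read from this count. Those that were higher included the adenylyl cyclases Adcy5 (83.4 ± 33.7 against 4.96 ± 2.42), Adcy6 (76.1 ± 57.2 against 4.25 ± 2.23) and Adcy9 (61.7 ± 34.0 against 3.62 ± 1.73). They also included the phosphodiesterases Pde3a (223 ± 121 against 5.80 ± 3.47) and Pde5a (75.5 ± 38.3 against 4.36 ± 1.35), the Gq family subunits Gna11 (88.4 ± 25.3 against 47.8 ± 6.98) and Gna14 (78.4 ± 40.1 against 3.89 ± 4.67), and the inositol trisphosphate receptor Itpr1 (97.3 ± 31.5 in mural cells). The kinase subunits Prkar1a and Prkg1 and the regulators Rgs4 and Rgs5 completed the 12. The 6 that were lower were Adcy4, Adcy7, Pde3b, Itpr2, Itpr3 and Arrb1, with mural means of 0.132 to 1.74 scaled counts.

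Soleus and gastrocnemius had been kept apart for the pool (5 and 6 mural cells) and for part of PdgfrbGFP (6 and 17 mural cells). With a pair of strain labels no test was made, and the values are given side by side. Olfr558 averaged 406 scaled counts in soleus and 120 in gastrocnemius of the pool, and 529 and 426 for PdgfrbGFP. P2rx1 averaged 41.6 in soleus and 0 in gastrocnemius of the pool, and 423 and 322 for PdgfrbGFP. For Olfr78 the pool gave 445 in soleus and 503 in gastrocnemius, whereas PdgfrbGFP gave 608 and 193, so that the order of the muscles was reversed. In the pool 3 of the 6 gastrocnemius cells and 1 of the 5 soleus cells held Abcc9, and the plate also differed between the muscles of the pool, so that these cannot be told apart.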

How the data were processed

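The authors sorted single cells, made Smart-seq2 libraries, which carry no molecular identifiers, and mapped single reads to GRCm38 with TopHat2. The deposited values are raw counts for each gene in each cell, made by the authors with featureCounts. The annotation release and strand setting are not given in the sources used here. Of 1754 columns, 1 carried no label and was not used. Identifiers were matched to gene symbols, and 512 had none. Spike-ins (1.31% of all counts) were not analysed beyond the scaling named below. Doublets were treated by the authors only.

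The 6 receptors and all gene lists were chosen with earlier results of these data known. Each cell was scaled to 500000 counts, averaged within a strain label, and then over the 5 labels (a label with under 3 cells of a cluster was left out there). Named genes were the receptors, genes of the fixed lists detected in 10% of mural cells or with strain means that did not overlap, neighbouring olfactory receptor genes with counts, and the 5 genes most alike each receptor (for the olfactory receptors also the least alike). Some genes of those lists are given as counts only, and a few below both limits were named because of their role, after their values were seen. Alternatives included pooled sums with edgeR 4.0.16 (TMM) and DESeq2 1.42.0 size factors (R 4.3.3), spike-in scaling, other limits of detection and thinning to 45000 counts. The scripts (Python 3.11.15) were tested on simulated data.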

Additional observations from a re-analysis of the deposited data

Results flagged for a closer look

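For each receptor, 4 sets of 5 strain values were examined (levels and shares of cells, in mural cells and in fibroblasts), 24 sets in all, and in 4 of them the outermost value lay far from the others for a set of 5. Chance alone flags about 1 in 20 such sets where the values are independent and normally distributed. Fibroblast values lie near 0, and the level and share of a gene come from the same cells, so the flags are not set against that rate. All 4 were the Acta2GFP fibroblasts. Their mean of Olfr558 was 5.26 scaled counts, where the next highest strain mean was 0.734, and 67.3% of them had a count of Olfr558, where the next highest share was 15.9%. Their mean of Crhr2 was 0.554 scaled counts beside a next value of 0.0333, and 15.8% of them had a count of Crhr2 beside a next share of 1.01%. These values all lie far below the detection limit of 100 scaled counts. The Acta2GFP fibroblasts also had the highest mean of the mural gene Myh11, 24.0 scaled counts. The source of the counts was not tested. None of the 12 sets of mural values was flagged.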

How the results depend on the processing

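Of 260 alternative values, 224 stayed within 1 SD over strains of the value given (for ratios, shares of genes and receptors per Abcc9 cell, within 1.5 times it) and 36 did not. Of the 260, 140 left out a strain label, and 133 of those stayed. Most of these 133 could not have moved, for the reason given below, so the 224 are not read as a measure of stability. A limit of 1 count moved the share of mural cells with Olfr78 to 70.6%, with Mrgprh to 38.0%, with Crhr2 to 22.9% and with Hcrtr1 to 15.8%. It moved receptors per mural cell to 2.75, receptors per cell with Abcc9 to 3.20 and the share with both olfactory receptors to 67.9%. Among fibroblasts it gave 17.6% for Olfr78, 20.6% for Olfr558, 1.70% for Mrgprh, 3.56% for Crhr2, 1.45% for Hcrtr1 and 9.46% for P2rx1. A limit of 20 scaled counts gave 29.8% of mural cells for Mrgprh, 0.8 receptors per cell with Abcc9 and, of fibroblasts, 0.594% for Olfr78, 1.24% for Olfr558 and 0.0337% for Mrgprh. After thinning, the limit was also 1 count, and the expected share of mural cells was 66.1% for Olfr78 and 34.7% for Mrgprh. At that limit without thinning the shares were 70.6% and 38.0%, so thinning itself lowered them. The level of Hcrtr1 was 40.4 from pooled sums, 41.5 with TMM, 44.4 with DESeq2 size factors and 42.4 with spike-in scaling. With genes of any count kept, 2.62% of genes were higher in mural cells. Leaving out each strain label, which leaves fewer means to separate, gave 6.01% to 8.92%, the latter without C57BL6. The mural to fibroblast ratios, examined after the data were seen, ranged over the same omissions from 369 to 1220 for Olfr78, 190 to 913 for Olfr558, 544 to 1001 for Mrgprh, 297 to 3155 for Crhr2, 680 to 2271 for Hcrtr1 and 431 to 1093 for P2rx1, all highest without Acta2GFP. Leaving out a label moved no other value past these limits, and all 6 receptors kept strain means that did not overlap. For levels, shares of cells, receptors per cell and overlap, this outcome was fixed in advance. Leaving out a label cannot move a mean over the labels by their SD, nor create an overlap, so stability is not read from it. Chosen after the data were seen, leaving out the C57BL6 plate with 5 mural cells moved Olfr78 to 583 scaled counts and 67.1% of cells, and leaving out cells with Abcc9 or Kcnj8 moved the share with Olfr78 to 75.3% and with Hcrtr1 to 16.0%. The cause of these shifts was not tested beyond what each setting removes. Values for C57BL6 and the pool rest on 9 and 11 mural cells, where 3 cells are 33.3% and 27.3% of the group.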
